A study of Mus musculus with 24 samples.

Results

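The CD300 receptors were followed in mouse macrophages through the 10 probes on the array whose gene name was Cd300a, Cd300e, Cd300lb, Cd300ld or Cd300lf. Every non-control probe with one of these 5 names was taken, of 37074 gene names and 56605 gene probes in all. Cd300lb had 3 probes, Cd300a, Cd300ld and Cd300lf had 2 each, and Cd300e had 1. All 10 were among the 39038 probes tested, which stood well above the local background on at least 4 of the 24 arrays.

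The macrophages were grown from bone marrow for 6 days in 20 ng/ml M-CSF, the growth factor that drives marrow precursors towards macrophages. WT cells came from Slc2a1 fl/fl mice and KO cells from LysM-Cre X Slc2a1 fl/fl mice, so both genotypes carried the floxed allele of Slc2a1, the gene of the glucose transporter GLUT1, and only KO carried Cre. The Cre is expressed from the lysozyme locus of myeloid cells, which makes the deletion a myeloid one rather than one of the macrophage alone. Both genotypes were studied unstimulated (M0), after 24 h with LPS (5 ng/ml) plus IFNγ (10 ng/ml), called M1, and after 24 h with IL-4 (10 ng/ml), called M2. Each of these 6 groups had 4 biological replicates. Where 4 levels of a group are listed, they are those of replicates 1 to 4. The comparisons ask how CD300 transcripts respond to each stimulus and whether loss of GLUT1 alters them.

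CD300 molecules are single-pass membrane proteins with an immunoglobulin-like domain, carried mainly by myeloid cells, and several of them bind phospholipids or other lipids exposed on dying or activated cells. The inhibitory members, Cd300a and Cd300lf, have long tails with tyrosine motifs that recruit the phosphatases SHP-1 and SHP-2, products of Ptpn6 and Ptpn11. Cd300lb, Cd300ld and Cd300e belong to the short-tailed, activating kind, which signals with the help of adaptors such as DAP12, the product of Tyrobp, and the FcRγ chain, the product of Fcer1g. Cd300lf is also known as the entry receptor of murine norovirus.

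The probes of a gene read different stretches of its transcript. The 3 upstream probes of Cd300lb and Cd300lf are shown because results on these genes can be read at more than one place. The Cd300lb probes below start at bases 292 and 573 of the transcript and the third starts at base 2104. The Cd300lf probe starts at base 981 and the other at base 1557. All letters are in lower case, and no stretch is marked.
Cd300lb probe at base 292: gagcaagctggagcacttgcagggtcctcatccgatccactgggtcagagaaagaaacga
Cd300lb probe at base 573: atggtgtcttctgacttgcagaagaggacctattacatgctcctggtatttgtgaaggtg
Cd300lf probe at base 981: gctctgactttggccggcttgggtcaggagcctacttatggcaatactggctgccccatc
In the mm9 coordinates of the array files the first lies on the minus strand at chr11:114789764-114789823. The second covers chr11:114786342-114787363 on the same strand, so its 60 bases span 1022 bases of genome and cross a splice junction. The third Cd300lb probe lies at chr11:114784811-114784870. The Cd300lf probes lie on the minus strand at chr11:114978372-114978431 (base 981) and chr11:114977796-114977855 (base 1557). Cd300ld is read on the minus strand at chr11:114843796-114843855 (base 2341) and chr11:114843640-114843699 (base 2533), and Cd300e at chr11:114913395-114913454 (base 1725). Cd300a is read on the plus strand at chr11:114762469-114762528 (base 1145) and chr11:114763183-114763242 (base 1859). An exon or UTR annotation of mm9 was not used here.

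The promoters of Cd300lb and Cd300ld, which fell in M1, and of Cd300lf, which rose, are shown for comparison. They are the 250 bases before the annotated start, from RefSeq on GRCm38.p6, all on the minus strand. Capitals mark the letters of the single motif match among them.
Cd300lb, chr11:114934372-114934621: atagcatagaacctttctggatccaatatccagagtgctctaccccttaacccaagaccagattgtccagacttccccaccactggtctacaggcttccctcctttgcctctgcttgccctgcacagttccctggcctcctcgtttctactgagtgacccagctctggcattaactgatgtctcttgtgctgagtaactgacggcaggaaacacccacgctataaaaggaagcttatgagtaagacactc
Cd300ld, chr11:114989887-114990136: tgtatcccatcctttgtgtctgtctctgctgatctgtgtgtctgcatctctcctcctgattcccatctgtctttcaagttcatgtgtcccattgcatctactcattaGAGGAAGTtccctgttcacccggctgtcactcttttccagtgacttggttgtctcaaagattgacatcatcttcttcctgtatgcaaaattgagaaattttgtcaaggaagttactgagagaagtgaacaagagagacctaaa
Cd300lf, chr11:115133993-115134242: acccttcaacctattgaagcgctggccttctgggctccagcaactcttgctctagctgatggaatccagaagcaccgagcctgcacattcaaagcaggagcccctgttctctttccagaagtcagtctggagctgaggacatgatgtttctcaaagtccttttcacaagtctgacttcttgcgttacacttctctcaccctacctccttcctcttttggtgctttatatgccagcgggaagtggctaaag
All 5 genes matched an entry, and 5 motifs were searched on both strands. The PU.1 motif GAGGAAGT was found in the Cd300ld promoter, at positions −143 to −136 from the start, and in 2.44% of 32851 promoters of this length. The GAS motif TTCNNNGAA was found in the Cd300e promoter, at positions −184 to −176, and in 7.02% of promoters. The ISRE, searched as GAAA, any 2 bases and GAAA (2.98% of promoters), the STAT6 motif, searched as TTC, any 4 bases and GAA (5.85%), and the AP-1 motif TGANTCA (6.75%) were not found in any of the 5 windows, and the Cd300a, Cd300lb and Cd300lf windows held no match to any motif. The GAS and STAT6 motifs share their outer letters, and the 2 matches lie in different promoters, so no matches overlapped. A match is only a match of letters.

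A level below is the log2 of a probe's processed signal minus the log2 of the 75th percentile of its array, so that 0 is the array's 75th percentile and 1 unit is a 2-fold difference. Levels of different probes are not comparable with each other. The 75th percentile itself ran from 2253 to 4362 signal units, and the KO M1 arrays had the lowest ones (2253 to 2491, against 2728 to 3618 in WT M1). Between 53.1% and 71.4% of probes stood above background on an array, and no spot was saturated. The 24 arrays formed 4 sets of 6, each with every group once. Sets 1 to 3 are arrays of slides 1 to 3 that showed signal of Y-linked genes, and the fourth set gathers the arrays that lacked it. In the fourth set the M0, M1 and M2 arrays lie on slides 1, 2 and 3, so its state and slide cannot be told apart.

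The Slc2a1 probe, at base 2501 of its transcript, passed the test in no state, and its KO minus WT log2 differences were −0.30 (M0), 0.29 (M1) and −0.19 (M2). The sources used here do not place the probe relative to the floxed exons, and it checks nothing about the deletion. Lyz2, the locus that carries the Cre, had levels of 6.97 to 7.48 on the WT arrays and 2.51 to 5.82 on the KO arrays, which did not overlap. Nos2, a classical gene of LPS and IFNγ activation, had means of 7.28 (WT) and 7.26 (KO) in M1 against −2.86 and −2.16 in M0, and Retnla, a gene of IL-4 activation, had means of 6.99 (WT) and 7.0 (KO) in M2 against −4.76 and 1.71 in M0 and −7.75 and −1.17 in M1. All 8 macrophage markers stood above background in every group. Of 3 T cell genes, Cd3g and Cd8a were above background on no array and Cd3e on every array. The sum of the linear levels of 5 monocyte markers, as multiples of the 75th percentile, was 56.7 to 115 in WT M1 and 16.8 to 28.8 in KO M1, and that of 8 neutrophil markers was 8.74 to 44.5 and 42.5 to 120. For 7 mast cell and basophil markers it was 0.0606 to 0.0952 in WT M1 and 0.196 to 1.16 in KO M1, with Kit, Ms4a2, Cma1 and Mcpt8 above background on no WT M1 array. For 6 dendritic cell markers it was 25.3 to 42.8 in WT M1 and 44.7 to 68.1 in KO M1, with Xcr1 above background on no array of either group. For 2 eosinophil markers it was 0.0232 to 0.387 and 0.302 to 4.81. A sum follows its brightest genes, and some lists held markers moving both ways. Between genotypes in M1 (limma, adjusted p under 0.05), 3 neutrophil markers were higher and 1 lower in KO, with differences of −2.71 to 2.39. For 5 tested dendritic cell markers it was 1 and 1 (−1.63 to 0.76), and for 8 macrophage markers 1 and 2 (−1.47 to 0.55). For 7 mast cell and basophil markers it was 3 and 0 (0.29 to 3.08), and for 2 eosinophil markers 1 and 0 (2.33 to 4.18). For 3 B cell markers it was 2 and 0 (1.24 to 1.45), none of them above background on all arrays of WT M1 or KO M1. For 5 monocyte markers it was 0 and 3 (−1.90 to 0.81). Of all tested probes 25.8% were higher and 20.3% lower. The part of these marker levels, and of the lower 75th percentile of KO M1 arrays, in the results below was not tested, and in bulk RNA fewer cells of a type and less RNA per cell cannot be told apart.

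All 5 CD300 genes had a probe that passed the test between genotypes in M1, and none had one in M0 or M2. In M1, 2 member probes were higher and 7 lower in KO at an adjusted p under 0.05 (limma, Benjamini-Hochberg over all probes tested). Of all tested probes 46.1% passed in that comparison, 25.8% higher and 20.3% lower, and 44.7% had groups that did not overlap, as did 8 of the 10 member probes. The member probes had a median log2 difference of −1.05, against 0.18 over all probes. In M0 no member probe passed, with differences of −0.35 to 0.44, against 0.0384% of all probes. In M2 none passed either, with differences of −0.04 to 1.25 against 0.0564% of all probes. The smallest unadjusted p among members was 0.176 in M0 and 0.0812 in M2. No member reached an unadjusted p of 0.05 in either state, whereas 1174 and 1856 probes of the whole array did.

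Member probes were also called between states. From M0 to M1, 3 member probes rose and 6 fell in WT, beside 24.4% and 23.4% of all probes (47.9% in either direction), and 2 rose and 5 fell in KO, beside 32.1% and 24.9% (57% in either direction). From M0 to M2, 3 rose and 2 fell in WT, beside 6.46% and 8.78% of all probes (15.2% together). In KO 3 rose and 1 fell from M0 to M2, beside 6.47% and 7.51% (14% together). The change from M0 to M1 was itself different between genotypes for 7 member probes, 2 towards higher and 5 towards lower values in KO, beside 16.2% and 14.5% of all probes (30.7% together). The change from M0 to M2 was called different for 0% of all probes (limma), members included, and 378 probes, none of them a member, reached an unadjusted p of 0.05 there. The M1 comparisons of the genotypes share arrays with one another, so their values for a member are given side by side and not as separate support.

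**Figure D1:**
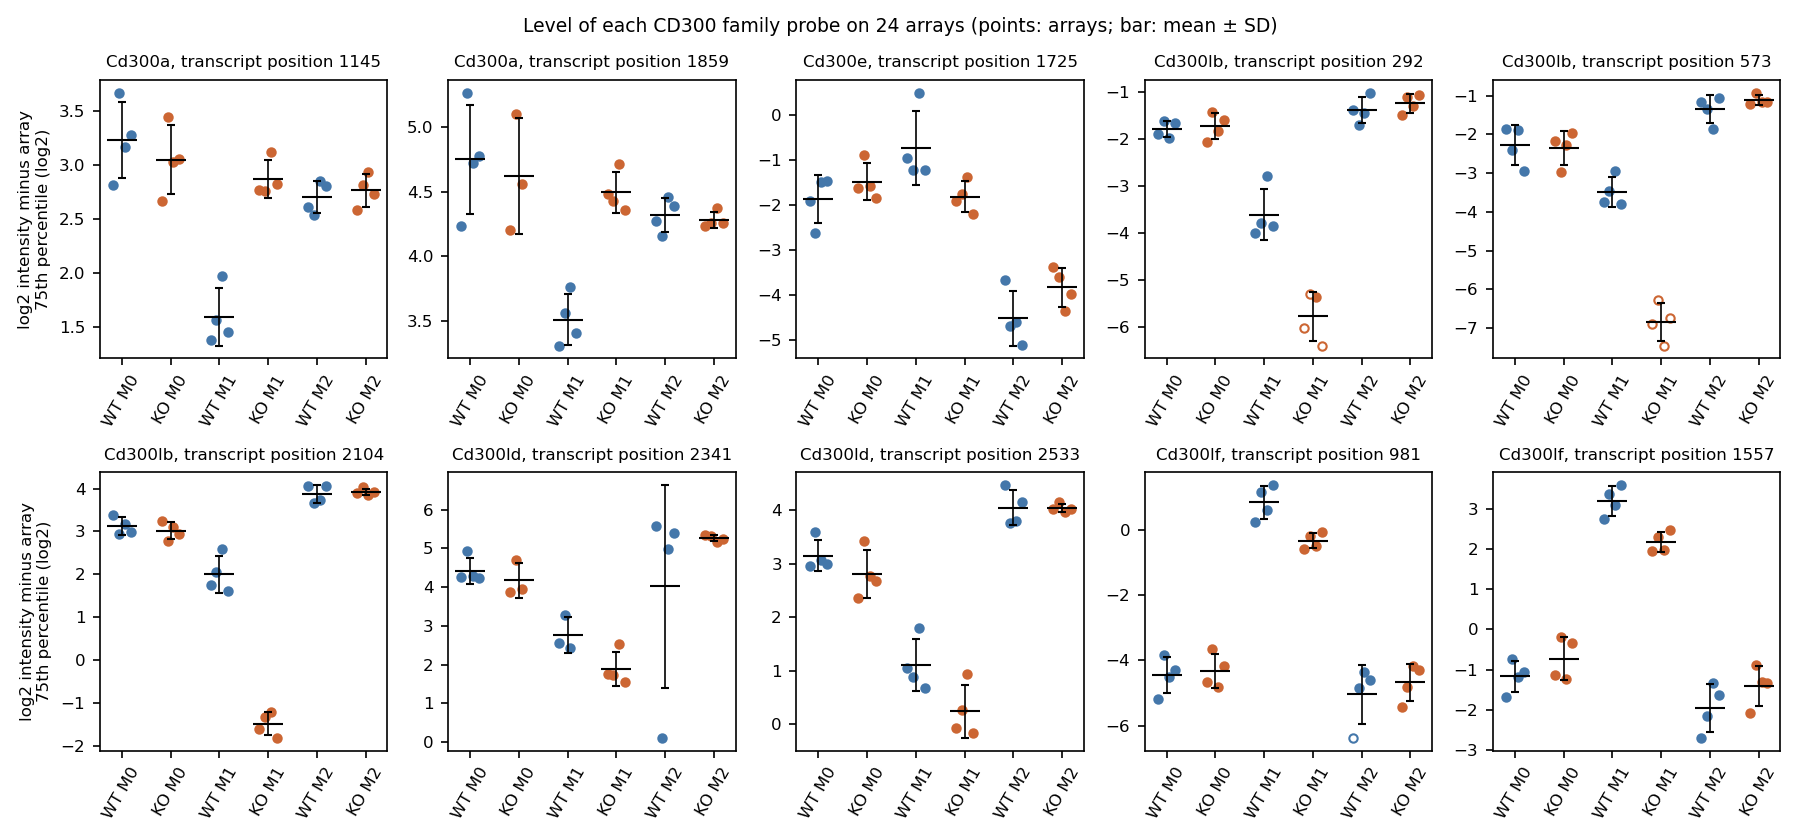
Level of each CD300 probe on each of the 24 arrays (log2 of the processed signal relative to the array's 75th percentile), by group; points are single arrays, open where not above background, and bars are means ± SD. Cd300lb at base 2104 sits between 1.61 and 2.58 in WT M1 and between −1.82 and −1.22 in KO M1, while Cd300lf at base 1557 is at 1.95 or higher in both M1 groups and at −0.20 or lower elsewhere.

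Cd300a, the inhibitory receptor that binds phosphatidylserine and phosphatidylethanolamine, fell in WT M1 and was higher in KO M1. At base 1145 the WT arrays had levels of 2.82, 3.67, 3.16 and 3.28 in M0 and of 1.38, 1.57, 1.98 and 1.46 in M1. The KO levels were 2.67, 3.45, 3.03 and 3.06 in M0 and 2.77, 2.76, 3.12 and 2.83 in M1. The WT M1 arrays were the 4 lowest of these 16, with no overlap with any other group, whereas the KO M1 arrays lay within the range of KO M0. The fall from M0 to M1 in WT was −1.64 ± 0.18 (log2 difference ± SE, adjusted p = 1.72e-07). In KO the same step was −0.18 ± 0.18 with a 95% interval of −0.55 to 0.19. In M1 the KO level exceeded WT by 1.28 ± 0.18, a 2.42-fold difference (adjusted p = 4.71e-06). The difference between the 2 M1 responses was 1.46 ± 0.25 (adjusted p = 1.19e-04).

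The second Cd300a probe, at base 1859, is the brighter one. Its levels were 4.24, 5.26, 4.72 and 4.78 in WT M0 and 3.31, 3.56, 3.76 and 3.40 in WT M1. In KO M1 they were 4.48, 4.43, 4.71 and 4.36, each above every WT M1 array. The KO M0 levels were 4.2, 5.10 and 4.55, the replicate 4 spot having been marked as an outlier by the scanner software and left out of the fit. The KO minus WT difference in M1 was 0.98 ± 0.19 (adjusted p = 2.17e-04), and the M1 responses differed by 1.11 ± 0.27 (adjusted p = 0.00385), a call lost under quantile normalization (0.75, adjusted p = 0.0692). Within each of the 4 sets of arrays the M1 difference was positive, 0.86 to 1.17 at this probe and 1.15 to 1.39 at the other. It also stands in the unscaled signal at base 1145, with mean intensities of 17145 units in KO M1 and 9185 in WT M1. Unscaled, KO M0 had 28662 units there, so the near-equal levels of KO M0 and KO M1 rest on the scaling. Over 23 arrays the 2 probes correlated at r = 0.979, as a description of arrays that share their groups.

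The order of the Cd300a means at base 1859 was WT M0 (4.75), KO M0 (4.62), KO M1 (4.49), WT M2 (4.32), KO M2 (4.28) and WT M1 (3.51). Each of the first 5 overlapped its neighbours in that order, and WT M1 alone stood apart. In M2 the levels at base 1145 were 2.61, 2.54, 2.85 and 2.81 in WT and 2.58, 2.81, 2.94 and 2.73 in KO, which overlapped. The step from M0 to M2 in WT was −0.53 ± 0.18 at base 1145 (adjusted p = 0.047) and −0.43 ± 0.19 at base 1859 (adjusted p = 0.137, and 0.033 with the set of arrays as a block). The groups overlapped, and leaving out 1 array lost the call at base 1145 for 6 of the 8 arrays, with adjusted p of 0.0585 to 0.179. Under quantile normalization, which lowered the median KO minus WT difference of all probes in M1 from 0.18 to −0.06, the step from M0 to M1 in KO also passed, at −0.49 (adjusted p = 0.0323) and −0.67 (adjusted p = 0.016).

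Cd300lf, the other inhibitory receptor, rose with LPS and IFNγ in both genotypes, and less far in KO. At base 1557 the levels were −1.68, −0.74, −1.19 and −1.06 in WT M0 and 2.74, 3.37, 3.08 and 3.59 in WT M1. In KO they were −1.15, −0.20, −1.24 and −0.33 in M0 and 1.95, 2.29, 1.98 and 2.46 in M1. All 8 M1 arrays stood above all M0 arrays, and the KO M1 arrays stood below all WT M1 arrays. The rise was 4.36 ± 0.31 in WT, 20.6-fold (adjusted p = 5.77e-10), and 2.90 ± 0.31 in KO, 7.46-fold (adjusted p = 8.58e-08). The KO minus WT difference in M1 was −1.03 ± 0.31 (adjusted p = 0.0102), and the rises differed by −1.46 ± 0.44 (adjusted p = 0.0145). Without the set of arrays that lacks Y-linked signal, the difference of the rises was −1.40 with an adjusted p of 0.0545.

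At base 981, the upstream Cd300lf probe shown above, the levels were −5.18, −3.82, −4.50 and −4.31 in WT M0 and 0.24, 1.15, 0.62 and 1.38 in WT M1. They were −4.66, −3.66, −4.82 and −4.16 in KO M0 and −0.57, −0.18, −0.48 and −0.07 in KO M1. The pattern was that of the other probe, with no overlap between the M1 groups. The rise was 5.30 ± 0.40 in WT (39.4-fold, adjusted p = 1.23e-09) and 4.00 ± 0.40 in KO (16-fold, adjusted p = 2.95e-08). The KO minus WT difference in M1 was −1.17 ± 0.40 (adjusted p = 0.0206). That call was lost without KO M1 replicate 1 (−1.09, adjusted p = 0.0529), WT M1 replicate 2 (−1.07, adjusted p = 0.0564) or WT M1 replicate 4 (−1.0, adjusted p = 0.0683). The difference of the rises at this probe was −1.30 ± 0.56 and was not called (adjusted p = 0.0906). It was called with the replicate number as a block (adjusted p = 0.0141), with the set of arrays as a block (0.00821) and with the slide as a block (0.0444).

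In M2 Cd300lf stayed low: at base 1557 the levels were −2.70, −2.16, −1.33 and −1.64 in WT and −2.07, −0.90, −1.32 and −1.34 in KO. The order of the means there was WT M1 (3.20), KO M1 (2.17), KO M0 (−0.73), WT M0 (−1.17), KO M2 (−1.41) and WT M2 (−1.96), and the last 4 overlapped their neighbours. The step from M0 to M2 was −0.79 ± 0.31 (adjusted p = 0.096) in WT cells and −0.68 ± 0.31 (adjusted p = 0.163) in KO cells, neither of which was called. With the replicate number as a block these 2 steps had adjusted p of 0.0152 and 0.0374, and with the set of arrays as a block 0.0104 and 0.0263. Within the sets of arrays the KO minus WT difference in M1 was −1.13 to −0.79 at base 1557 and −1.45 to −0.82 at base 981, always negative. The 2 probes correlated at r = 0.990 over the arrays.

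**Figure D2:**
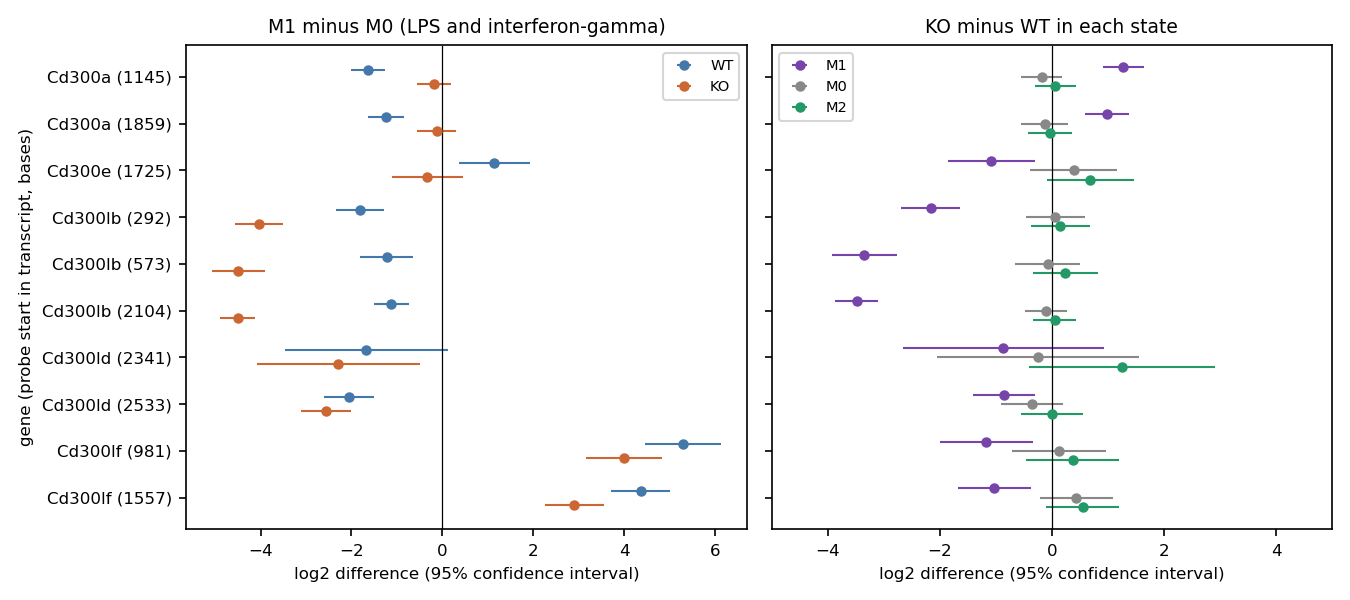
Log2 difference of each CD300 probe between M1 and M0 in WT and KO (left) and between KO and WT in each state (right), with 95% intervals from the limma fit of all 24 arrays. For KO minus WT, the intervals exclude 0 at 9 of the 10 probes in M1 and at none in M0 or M2.

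Cd300lb, an activating receptor that pairs with DAP12, fell in M1 in both genotypes and fell much further in KO. At base 2104 the levels were 3.39, 2.94, 3.16 and 2.98 in WT M0 and 1.75, 2.05, 2.58 and 1.61 in WT M1. In KO they were 3.25, 2.79, 3.09 and 2.93 in M0 and −1.60, −1.33, −1.22 and −1.82 in M1. The KO and WT M0 arrays overlapped, every WT M1 array lay below them, and every KO M1 array lay below every WT M1 array. The fall was −1.12 ± 0.18 in WT, 2.18-fold (adjusted p = 3.02e-05), and −4.50 ± 0.18 in KO, 22.7-fold (adjusted p = 9.66e-14). In M1 the KO level was 11.2-fold below WT, a difference of −3.49 ± 0.18 with a 95% interval of −3.86 to −3.11 (adjusted p = 2.06e-11). The falls differed by −3.38 ± 0.26 (adjusted p = 1.52e-08).

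The Cd300lb difference was also plain before scaling: the signal at base 2104 was 8308 to 16609 units on the WT M1 arrays and 640 to 1072 on the KO M1 arrays. Within the 4 sets of arrays the difference in M1 was −3.8 to −3.35, and the difference of the falls was −3.65 to −3.20. In M0 and M2 the KO minus WT differences at this probe had 95% intervals of −0.48 to 0.28 and −0.33 to 0.43.

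The upstream Cd300lb probes shown above gave the same direction. At base 292 the levels were −4.01, −3.79, −2.80 and −3.85 in WT M1 and −6.02, −5.31, −5.37 and −6.40 in KO M1, where 1 of the 4 arrays stood above background. At base 573 they were −3.75, −3.47, −2.95 and −3.81 in WT M1 and −6.89, −6.27, −7.45 and −6.75 in KO M1, where none did. Neither probe's M1 groups overlapped. Each dim array was also set at no less than the lowest level of any probe above background on it. At base 573 Cd300lb was then 6.62-fold lower in KO M1 than in WT M1, and 14.6-fold lower than in KO M0. These folds refer to the processed signal and are not bounds. On KO M1 replicates 1 and 2 the probe lay over that lowest level (−7.11 and −6.65) and was still not above background. The measured differences in M1 were −3.35 ± 0.28 at base 573 (adjusted p = 5.31e-09) and −2.16 ± 0.25 at base 292 (adjusted p = 5.18e-07), and with normexp background correction they were −1.38 (adjusted p = 1.97e-05) and −0.96 (adjusted p = 2.25e-04). The fall from M0 to M1 in KO measured −4.49 at base 573 and −4.04 at base 292, against −2.35 and −2.58 with normexp. The KO fall was called larger than the WT fall at both probes, by a measured difference of −3.27 (base 573, adjusted p = 2.29e-06) and −2.23 (base 292, adjusted p = 5.89e-05) and by −1.33 and −1.03 with normexp. Since KO M1 was mostly not above background there, the size of these differences is not fixed. In M0 the levels were −1.90, −1.63, −1.97 and −1.67 in WT and −2.06, −1.43, −1.83 and −1.59 in KO at base 292, which overlapped. At base 573 they were −1.87, −2.40, −1.88 and −2.94 in WT and −2.17, −2.98, −2.28 and −1.96 in KO, which overlapped too. The 3 probes correlated with each other at r of 0.953 to 0.986 over the arrays.

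IL-4 moved Cd300lb the other way. At base 2104 the levels in M2 were 4.05, 3.66, 3.74 and 4.06 in WT and 3.91, 4.03, 3.85 and 3.92 in KO, above all M0 arrays and overlapping each other. The rise from M0 was 0.76 ± 0.18 (adjusted p = 0.00654) in WT cells and 0.91 ± 0.18 (adjusted p = 0.00174) in KO cells. At base 573 it was 0.92 ± 0.28 (adjusted p = 0.0302) in WT cells and 1.23 ± 0.28 (adjusted p = 0.00491) in KO cells. At base 292 the steps of 0.40 ± 0.25 and 0.49 ± 0.25 were not called (adjusted p = 0.315 and 0.22). The WT rise at base 573 lost its call when any of 5 of the 8 arrays was left out (adjusted p of 0.0629 to 0.121). The order of the means at base 2104 was KO M2 (3.92), WT M2 (3.88), WT M0 (3.12), KO M0 (3.02), WT M1 (2.00) and KO M1 (−1.49). Only genotypes of the same state, in M2 and in M0, overlapped.

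**Figure D3:**
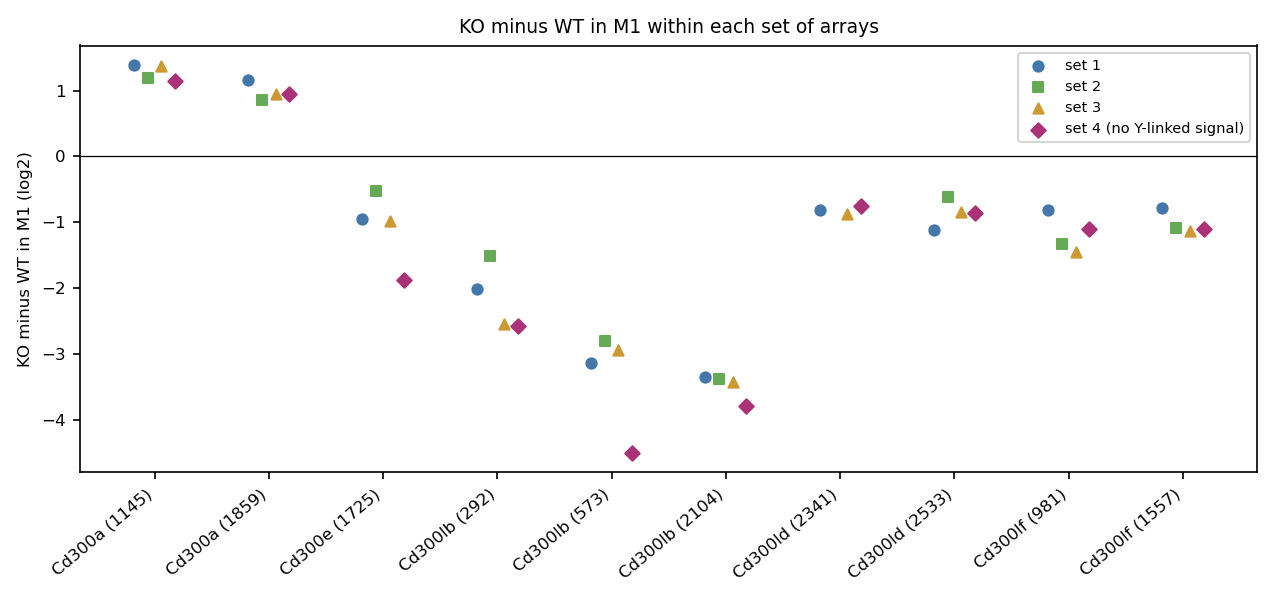
KO minus WT log2 difference in M1 of each CD300 probe within each of the 4 sets of arrays, 1 KO array against 1 WT array a point. At Cd300lb base 2104 the 4 points lie between −3.8 and −3.35, and at Cd300e between −1.87 and −0.52.

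Cd300ld, another short-tailed receptor, also fell in M1 and rose in M2. At base 2533 the levels were 2.95, 3.59, 3.06 and 3.00 in WT M0 and 1.04, 0.88, 1.79 and 0.68 in WT M1. In KO they were 2.35, 3.41, 2.77 and 2.67 in M0 and −0.07, 0.27, 0.93 and −0.17 in M1. The M0 and M1 arrays did not overlap in either genotype, but WT M1 and KO M1 did. The fall was −2.05 ± 0.26 in WT, 4.15-fold (adjusted p = 1.83e-06), and −2.56 ± 0.26 in KO, 5.9-fold (adjusted p = 4.88e-08). In M1 the KO level was lower, with a difference of −0.86 ± 0.26 (adjusted p = 0.0113), a call that was lost without WT M1 replicate 3 (−0.63, adjusted p = 0.055). Within the sets of arrays the difference was −1.11 to −0.62. The falls of the 2 genotypes differed by −0.51 ± 0.37, with a 95% interval of −1.29 to 0.27, and that difference was not called (adjusted p = 0.348).

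In M2 the Cd300ld levels at base 2533 were 4.47, 3.76, 3.80 and 4.14 in WT and 4.03, 4.15, 3.96 and 4.01 in KO, all above the M0 arrays. The rise was 0.89 ± 0.26 (adjusted p = 0.0261) in WT cells and 1.24 ± 0.26 (adjusted p = 0.00318) in KO cells. The WT call was lost without WT M0 replicate 1, 3 or 4 or without WT M2 replicate 1 (adjusted p of 0.0594 to 0.0952). The order of the means was WT M2 (4.04), KO M2 (4.04), WT M0 (3.15), KO M0 (2.80), WT M1 (1.1) and KO M1 (0.24), with overlap only between the genotypes of a state.

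The Cd300ld probe at base 2341 gave less precise values. Its levels were 4.25, 4.92, 4.28 and 4.25 in WT M0 and 5.59, 0.10, 4.98 and 5.40 in WT M2, where replicate 2 stood far below the others. The KO levels were 5.35, 5.31, 5.17 and 5.24 in M2 and 1.75, 1.73, 2.53 and 1.54 in M1, and those of WT M1 were 2.56, 3.29 and 2.42 in replicates 1, 3 and 4. Its spot lies in row 1 of the array, and on WT M1 replicate 2 and KO M0 replicate 3 the scanner software marked it as an outlier, so those values were left out. On WT M2 replicate 2 it was not marked, although its signal was 4585 units against 96942 to 174389 on the other WT M2 arrays. On these 3 arrays 42 neighbouring spots lay 2.36, 2.71 and 4.00 log2 units above their group medians, and 666, 1371 and 1910 spots were marked as nonuniform, against at most 67 on any other array.

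With the WT M2 replicate 2 value kept, the fit gave base 2341 a KO minus WT difference in M1 of −0.87 ± 0.86 (adjusted p = 0.433) and called only the fall from M0 to M1 in KO (−2.29 ± 0.86, adjusted p = 0.0289). That call was lost on leaving out any of 4 of the 8 arrays (adjusted p of 0.0539 to 0.0927), with the slide as a block (0.0714) and without the fourth set (0.104). With the set of arrays as a block the fall in WT was called too (−2.02, adjusted p = 0.0318). Without that value, a choice made after seeing the data, the M1 difference was again −0.87 (adjusted p = 0.0133), and the step from M0 to M2 in WT turned from −0.40 to 0.90 (adjusted p = 0.0305). The correlation between the 2 Cd300ld probes was r = 0.750 over 22 arrays and r = 0.998 over the 21 without WT M2 replicate 2.

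Cd300e, an activating receptor carried mainly by monocytes, was low in M2 in both genotypes. Its levels were −1.91, −2.62, −1.49 and −1.48 in WT M0 and −3.68, −4.70, −4.60 and −5.12 in WT M2. In KO they were −1.63, −0.89, −1.58 and −1.85 in M0 and −3.38, −3.60, −4.37 and −3.99 in M2. No M2 array reached the range of any M0 array, and all 24 arrays stood above background. The fall was −2.65 ± 0.37 in WT, 6.28-fold (adjusted p = 4.80e-05), and −2.35 ± 0.37 in KO, 5.10-fold (adjusted p = 2.12e-04), and both calls held when any 1 array was left out.

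In M1 the Cd300e levels were −0.97, −1.24, 0.49 and −1.23 in WT and −1.93, −1.76, −1.38 and −2.21 in KO. The groups did not overlap, and WT M1 replicate 3 stood well above the rest. The KO minus WT difference was −1.08 ± 0.37 (adjusted p = 0.0228), and it was −0.67 (adjusted p = 0.111) without WT M1 replicate 3 and −0.95 (adjusted p = 0.0682) without KO M1 replicate 4. Within the sets of arrays it ran from −1.87 to −0.52. From M0 to M1 Cd300e rose by 1.14 ± 0.37 in WT (adjusted p = 0.0163). Within sets 1 to 4 that rise was 0.94, 0.25, 0.25 and 3.11, the last between arrays of different slides. Without the fourth set it was 0.48 (adjusted p = 0.158). It was also not called without WT M0 replicate 2 (0.89, adjusted p = 0.0685) or WT M1 replicate 3 (0.73, adjusted p = 0.0792).

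In KO the Cd300e step from M0 to M1 was −0.33 ± 0.37, which was not called (adjusted p = 0.477). The M1 responses differed by −1.47 ± 0.53 (adjusted p = 0.0403), a call lost on leaving out any of 9 of the 16 arrays (adjusted p of 0.0512 to 0.0908) and without the fourth set (−0.76, adjusted p = 0.146). The order of the means was WT M1 (−0.74), KO M0 (−1.49), KO M1 (−1.82), WT M0 (−1.87), KO M2 (−3.84) and WT M2 (−4.53). The only neighbours in it that did not overlap were WT M0 and KO M2. The summed monocyte markers given above were also higher in WT M1 than in KO M1, with 3 of the 5 called lower in KO and differences of −1.90 to 0.81, and their part in the Cd300e difference was not tested.

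The array names further CD300 genes, read by 6 probes. Cd300c was lower in KO M1 than in WT M1, with a difference of −0.60 ± 0.12 (adjusted p = 4.19e-04). AF251705, now Cd300c2, differed by −0.60 ± 0.14 (adjusted p = 0.0015). Cd300lh, now Cd300ld3, fell from M0 to M1 in both genotypes, with differences of −1.51 in WT and −1.34 in KO and adjusted p of 7.73e-06 and 2.10e-05. Its KO minus WT difference in M1 was 0.03 with a 95% interval of −0.42 to 0.49. Gm11710, now Cd300ld4, also fell, with differences of −1.77 in WT and −1.01 in KO and adjusted p of 1.12e-05 and 0.00258. Cd300lg, an endothelial member of the family outside this cluster, rose in M1 at its brighter probe, with differences of 1.70 in WT and 1.21 in KO and adjusted p of 2.67e-06 and 1.03e-04, and its dimmer probe passed in no comparison. None of the 6 probes passed from M0 to M2 or between genotypes in M0 or M2. The Cd300lh and Gm11710 probes share most of their 60 bases in an unbroken run. Their falls cannot be taken as separate readings of each gene. Several of the further CD300 genes are close paralogs of the members, and binding of a probe to a paralog's transcript was not tested.

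**Figure D4:**
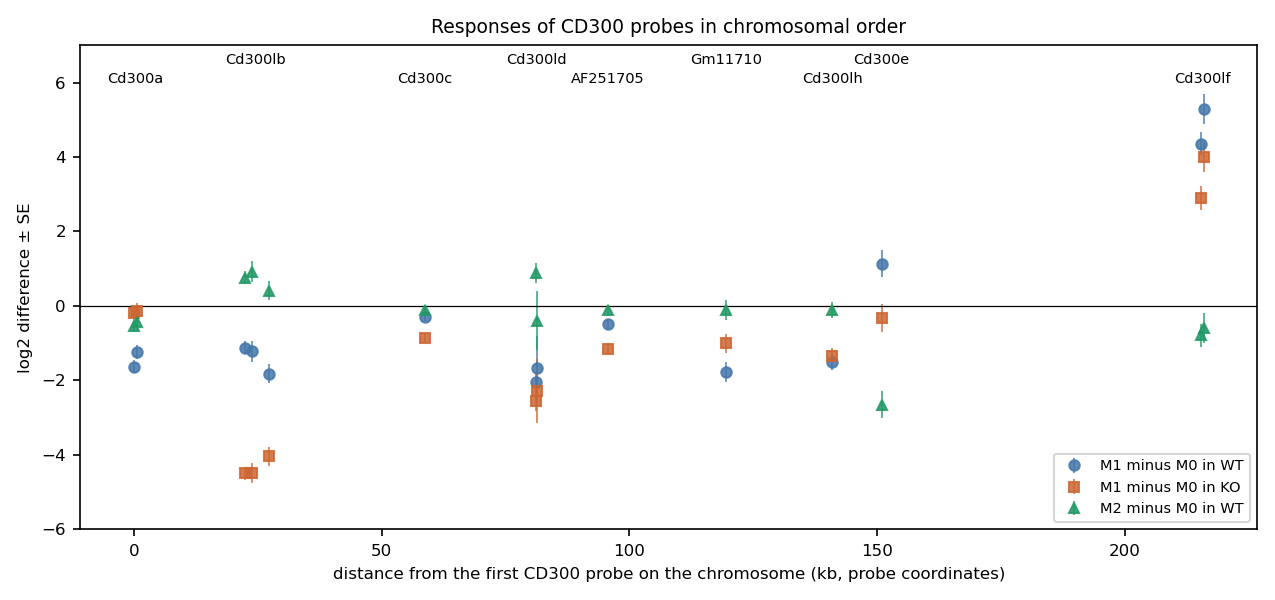
Log2 difference (± SE) of the probes in the CD300 cluster on chromosome 11 against the distance in kb from the first probe of the cluster. Shown are M1 minus M0 in WT (circles) and KO (squares) and M2 minus M0 in WT (triangles). Cd300lg lies outside the cluster and is not drawn. The M1 values run from −4.50 for Cd300lb in KO to 5.30 for Cd300lf in WT, and the M2 values from −2.65 for Cd300e to 0.92 for Cd300lb.

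Genes on either side of the CD300 cluster on chromosome 11 were called in both directions in M1. Of 12 neighbours listed, 11 were tested, and between genotypes in M1 1 was higher and 2 were lower, beside 25.8% and 20.3% of all probes. Ttyh2 was higher by 0.86, and Slc9a3r1 and Tmem104 were lower, each with a difference of −0.46. From M0 to M1 4 neighbours rose and 4 fell in WT, beside 24.4% and 23.4% of all probes.

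Among 25 signalling partners of CD300 receptors, 4 were higher and 13 lower in KO M1, beside 25.8% and 20.3% of all probes, with a median difference of −0.44 against 0.18 over all probes. Under quantile normalization 1 was higher and 21 lower, and Syk and Vav1, which were higher in the first count, turned. Inpp5d, the lipid phosphatase SHIP-1, had a difference of −1.64 (adjusted p = 5.59e-09), and Pik3cd, a phosphoinositide kinase subunit of leukocytes, of −2.19 (adjusted p = 1.51e-09). Gab2, a scaffold adaptor, was higher by 1.23 (adjusted p = 1.71e-06), and Lat2, another adaptor, by 0.95 (adjusted p = 0.0168). The next 3 partners, and the genes that turned, are named after their values were seen. Ptpn6, which encodes the SHP-1 recruited by Cd300a and Cd300lf, was lower in KO M1, with a difference of −1.46 (adjusted p = 7.52e-10). The adaptors of the activating receptors were not called: Tyrobp differed by −0.15 ± 0.09 (adjusted p = 0.205) and Fcer1g by −0.04 ± 0.11 (adjusted p = 0.785). From M0 to M1 10 partners rose and 5 fell in WT, beside 24.4% and 23.4% of all probes, and 8 rose and 13 fell in KO, beside 32.1% and 24.9%.

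Of 29 other paired and lectin-type myeloid receptors on the array, 4 were higher and 12 lower in KO M1, with a median of −0.33, where 46.1% of all probes were called in either direction. Clec4e, the receptor Mincle, was higher by 1.24 and Cd200r4 by 1.0. Clec4n, the receptor Dectin-2, was lower with a difference of −2.65, and Lair1, an inhibitory collagen receptor, with one of −2.15. Under quantile normalization 1 was higher and 16 were lower, and Trem2 and Clec7a, named after their values were seen, turned.

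The genes most like each CD300 gene were named by Pearson's r over the arrays between the brightest probes of 15897 genes. These correlations describe arrays that share 6 groups and carry no test. Cd300lb, over 24 arrays, lay closest to Btbd2 (r = 0.987), Ilk (0.986), Tmem143 (0.984) and Lpcat1 (0.983). Cd300lf lay closest to C4b (0.985), Dicer1 (0.982), Fbxw17 (0.976), Ifi208 (0.976) and Apol9a (0.975). Cd300e lay closest to the paired receptor Pilra (0.926), to Nfu1 (0.923), to Pilrb2 (0.918) and Pilrb1 (0.917), and to Trim45 (0.916). Cd300a, over 23 arrays, lay closest to Phax (0.944), Gcn1 (0.929), Slc7a10 (0.915), Abtb1 (0.915) and Snrpb2 (0.915). For Cd300ld the brightest probe is the one in row 1, and over 21 arrays it lay closest to Gprc5c (0.944), Pparg (0.937), Crat (0.937), Gusb (0.933) and Tmem123 (0.915), genes that all lack a value on WT M2 replicate 2. The probe at base 2533, compared after seeing the data, lay closest to Ripor1 (0.986), the lectin gene Clec10a (0.981), Tfec (0.979), Asb4 (0.977) and Ephx1 (0.976).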

How the data were processed

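RNA of 24 macrophage cultures was labelled with Cy3 and hybridised to 1-colour Agilent arrays of 60-base probes. The deposited values are processed signal intensity per spot, background-corrected by the authors' scanner software, Feature Extraction, whose version is 10.7.3.1 in the file headers and 9.1 in the submitters' processing notes. Of 62976 spots 3671 were controls and were left out, as were spots marked as outliers (2943 missing values among the probes tested). Intensities were taken as log2 minus the array's 75th percentile, and spots of one probe were averaged. Probes had to stand well above background on 4 arrays or more, and 1 model with a mean per group and 18 residual degrees of freedom was fitted to all of them with limma 3.58.1 in R 4.3.3 and Benjamini-Hochberg adjustment. The procedure was tested on simulated data. Precision is limited by 4 arrays a group.

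The members and gene lists were chosen with earlier results of these data known. Named genes were all member probes, the 5 genes most correlated with each member's brightest probe, 5 check genes, and up to 2 rises and 2 falls a list; 1 gene under this rule is not reported here. Same-numbered KO and WT arrays had correlated deviations from their group means in each of the 4 pairs of every state (r of 0.164 to 0.836 in M0, 0.196 to 0.604 in M1 and 0.161 to 0.690 in M2). In each state some KO arrays correlated more with a differently numbered WT array. For M0 replicate 4 this was 0.367 against 0.164, so pairing by number is not shown for every pair. Across states only 2 of 4 same-numbered pairs reached 0.1, whereas arrays of the same set correlated in every pair (r of 0.167 to 0.770). Alternatives were quantile normalization, normexp correction with an offset of 50, no filter, a filter on all 24 arrays, the brightest probe alone, blocks for slide, set and replicate number, and leaving out arrays. The table of series-wide values was not used, since its rows could not be matched to probes.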

Additional observations from a re-analysis of the deposited data

Results flagged for a closer look

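Each group of 4 arrays with all values was screened for an array far from the other 3, by the gap to its nearest neighbour over the range of the group. Of 57 groups 5 exceeded the 95% critical value of Dixon's test, and chance alone gives about 1 in 20. Cd300e stood at 0.49 on WT M1 replicate 3. Cd300ld stood at 4.92 (base 2341) and 3.59 (base 2533) on WT M0 replicate 2. Cd300ld at base 2341 stood at 0.10 on WT M2 replicate 2, where neighbouring spots were also out of range. Cd300lb at base 573 stood at −0.92 on KO M2 replicate 2. WT M1 replicate 3 and WT M0 replicate 2 both belong to the fourth set of arrays, which lacks Y-linked signal.

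The M1 response differed between KO and WT by the interaction term of the limma fit for 7 member probes. The differences were 1.46 and 1.11 for Cd300a, −1.47 for Cd300e, −2.23, −3.27 and −3.38 for Cd300lb at bases 292, 573 and 2104, and −1.46 for Cd300lf at base 1557. At bases 292 and 573 Cd300lb stood above background on 1 and 0 of the 4 KO M1 arrays, so those values are measured differences of unfixed size, and normexp background correction gave −1.03 and −1.33.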

How the results depend on the processing

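Over all alternatives and the member results counted, 1126 kept their direction and side of the threshold, 21 became called, 46 lost a call and 9 changed sign. Left out of this count were KO minus WT in M0 and in M2 and the difference of the M2 responses. The exception was Cd300ld at base 2341, counted for KO minus WT in M2. How often the left-out differences, many of them near 0, changed sign was not counted. Among the results counted, the changes of sign were those of Cd300ld at base 2341 and of Cd300a at base 1859. At Cd300ld base 2341, leaving out WT M2 replicate 2, leaving out the 3 arrays with many nonuniform spots, or leaving out that single value gave 0.90 for M2 minus M0 in WT and −0.058 for KO minus WT in M2, and the set of arrays as a block gave a difference of 0.076 between the M1 responses. Leaving out 1 array gave −0.93 to 0.90 and −0.058 to 1.77 for these steps. At Cd300a base 1859, M1 minus M0 in KO was 0.040 without the fourth set and −0.33 to 0.11 on leaving out 1 array. The cause was not tested.

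The number of member probes called, with the brightest probe of each gene alone (5 probes), was 4 for KO minus WT in M1, 4 for M1 minus M0 in WT, 3 in KO, 2 for M2 minus M0 in each genotype and 4 for the M1 response, since fewer probes were tested. Among probes above background on all 24 arrays, 4 member probes were called for M1 minus M0 in KO, beside 17508 of all 25741 such probes. That filter leaves out Cd300lb at bases 292 and 573 and Cd300lf at base 981. Leaving out 1 array gave 7 to 9 calls for KO minus WT in M1, 8 to 9 and 6 to 7 for M1 minus M0 in WT and KO, 2 to 5 and 4 for M2 minus M0 in WT and KO, and 6 to 7 for the M1 response. The 2 calls arose without WT M2 replicate 1 or WT M0 replicate 4, and 3 remained without WT M0 replicate 2 or 3.

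With the replicate number as a block, 9 members were called for KO minus WT in M1, 9 and 7 for M1 minus M0 in WT and KO, 6 and 5 for M2 minus M0, and 8 for the M1 response, beside 18730, 19312, 22768, 6848, 6346 and 12782 of all 39038 probes. Same-numbered arrays shared a set in only 2 of 4 pairs between M1 and M0, and in 1 of 4 between M2 and M0. Between states this block therefore mixes arrays of different sets. A block of pairs within each state, chosen after the pairing check, also gave 9 in M1 and 0 in M0 and M2, and raised the calls over all probes in M2 from 22 to 98. Among all probes, the share of M1 genotype calls that were higher in KO was 56.0%, against 41.8% under quantile normalization, 66.3% under normexp and 68.0% with no filter.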
